A study of Bos taurus with 15 samples.

Results

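Drug-metabolizing enzymes of 4 families were examined across bovine testes: the cytochromes P450 of families 1 to 4 (CYP), the UDP-glucuronosyltransferases (UGT), the sulfotransferases (SULT) and the cytosolic and mitochondrial glutathione transferases (GST). Members were taken by name alone, as every probe whose gene name or bracketed symbol on the array was CYP followed by a digit from 1 to 4 and a letter, or began with UGT1, UGT2, SULT, GSTA, GSTM, GSTO, GSTP, GSTT, GSTK or GSTZ. This rule found 50 probes for 48 of the 15038 named genes on the array: 24 CYP, 5 UGT, 6 SULT and 13 GST genes. The rule uses no measured value, though it was set with earlier results of these data known.

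Testis RNA came from cattle given the synthetic glucocorticoid prednisolone orally for 35 days, at a daily dose of 30 mg a head (n = 8 animals, prednisolone 25 to 32), and from cattle given no drug (n = 7 animals, control 17, 18 and 20 to 24). The labels give the organism and the tissue, which was collected at slaughter, and no breed or age. Each animal was measured once on a one-colour Agilent array, so the spread within a group is a spread between animals, and the number of arrays limits the precision. A level is the log2 processed signal minus the log2 75th percentile of that array, and levels are compared only within a probe, because probes differ in brightness.

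On 14 of the arrays, 82.2 to 89.9% of all probes were well above background. Prednisolone 30 stood apart, with 36.4%, a 75th percentile of 49.8 against 1220 to 2780 on the other arrays, and a correlation of 0.705 to 0.736 with them; its scanner values and its column in the deposited table had a Spearman correlation of 0.686, against at least 0.99998 for each of the others. On that array 13 of the 34 tested members were not above background, so that their level there is a background signal after scaling. Differences are therefore given with and without that animal. Scan day 1 was the only one with both groups: control 17, 18 and 23, and prednisolone 25, 26 and 29 to 32. Control 20, 21, 22 and 24 and prednisolone 27 and 28 were scanned on days without the other group. Group and scan day are thus partly confounded. Slides 1 and 2 were likewise the only slides with both groups. The tissue label was checked against marker genes with a probe. Of these, 10 of 11 spermatid and 10 of 10 spermatocyte markers were detected on 14 or 15 arrays. So were 11 of 11 Sertoli and 8 of 9 Leydig cell markers. The spermatid marker PRM2 and the Leydig cell marker SCARB1 were above background on too few arrays to be tested. Also detected on 14 or 15 arrays were 9 of 11 hepatocyte markers (10 tested) and 2 of 6 epididymal ones (3 tested). Because 82.2 to 89.9% of all probes were well above background on 14 arrays, such detection alone cannot settle the tissue.

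CYP enzymes insert oxygen into lipophilic compounds, mostly in the liver. UGT, SULT and GST enzymes then attach glucuronic acid, sulfate or glutathione to such compounds or to their oxidized products, which makes them easier to excrete. Several of the same enzymes handle endogenous substrates in the testis, among them steroids, fatty acids and products of lipid peroxidation. Glucocorticoids are themselves CYP3A substrates, and in liver they can raise the transcription of several of these genes through nuclear receptors.

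The testis had signal well above background on 7 or more arrays for all GST genes and for most CYP genes, but for only 1 UGT gene. Of the 48 genes, 34 were tested, having been well above background on 7 or more of the 15 arrays whatever their group: 17 of 24 CYP, 1 of 5 UGT, 3 of 6 SULT and 13 of 13 GST genes. By probe, 36 of the 50 member probes met this condition, against 18492 of all 21475 probes. Detection was on every array for 21 genes and on at least 14 arrays for 31. The 6 genes above background on no array were CYP1A2, CYP3A74, UGT1A2, UGT2B10, SULT1C1 and SULT6B1. The other 8 untested genes were above background on 1 to 5 arrays: among them CYP2B and UGT2B7 on 1, CYP2S1 on 2, CYP4F2 on 3, CYP2C18 and SULT1C2 on 4, and UGT2A1 on 5. No member probe was saturated.

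**Figure D1:**
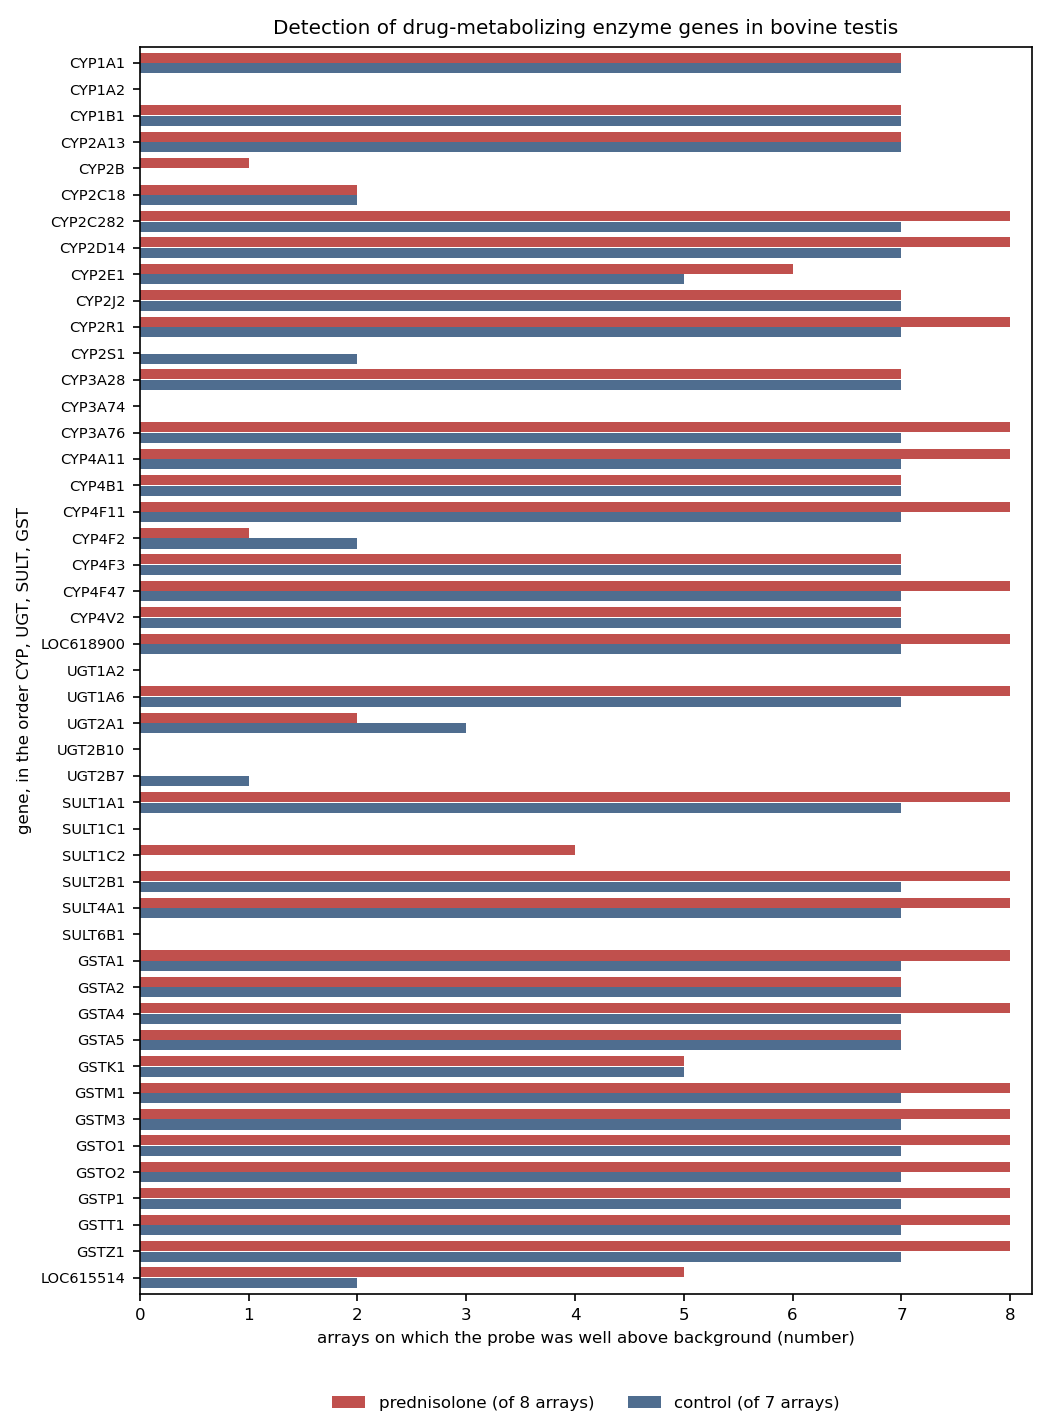
Number of arrays on which the probe of each gene reported by name was well above background, for prednisolone (upper bar, of 8) and control animals (lower bar, of 7), with genes in the order CYP, UGT, SULT, GST. Of the GST genes 11 of 13 reach at least 7 arrays in each group, while 4 of 5 UGT genes stay at 3 or fewer.

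Among untested genes, detection differed most in count for the gene the array names SULT1C2, a sulfotransferase of phenolic compounds, at 4 of 8 prednisolone and 0 of 7 control animals. Its measured mean was -7.52 in prednisolone and -8.37 in control animals, and against the lowest signal called above background on the control arrays the prednisolone mean was at least 1.41-fold higher. That bound rested on prednisolone 30, where the probe was not above background: without it the prednisolone mean was -8.01 and the bound 1.0-fold. The probe did not meet the condition for testing. RefSeq gives the name SULT1C2 to another gene, called SULT1C1 here after the array, whose probe was above background on no array. For CYP2B, CYP2S1 and UGT2B7, which were above background in 1 group only as well, the bound was below 1 and no fold is given.

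None of the 34 tested genes differed between prednisolone and control animals past an adjusted p of 0.05 (limma, Benjamini-Hochberg over 18492 tested probes, smallest adjusted p = 0.883). Neither did any probe on the array, so that the background of calls was 0%. At an unadjusted p under 0.05, 3 of the 34 genes were called, against 2.47% of all tested probes. Without prednisolone 30 the number was 4, against 4.4% of all probes, and in the deposited table it was 5, against 5.71%. No member had groups that did not overlap, with or without prednisolone 30, and such separation was seen for 0.0487% of all probes with it and 0.0811% without it.

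By sign, 22 genes (64.7%) were higher and 12 lower in prednisolone animals, against 54.8% of all tested probes higher. The median difference was 0.18 on the log2 scale against 0.04 over all tested probes. Leaving out prednisolone 30 kept the count at 22 and 12, against 52.0% of all probes higher. The median became 0.03 against 0.01 over all probes. In the deposited table and under quantile normalization 18 of the 34 were higher, against 49.1% and 41.6% of all probes. By family, 11 CYP genes were higher and 6 lower, 3 of 3 SULT genes were higher, the UGT gene was higher, and 7 GST genes were higher and 6 lower. The deposited table gave 8 CYP genes higher and 9 lower, and 6 GST genes higher and 7 lower.

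**Figure D2:**
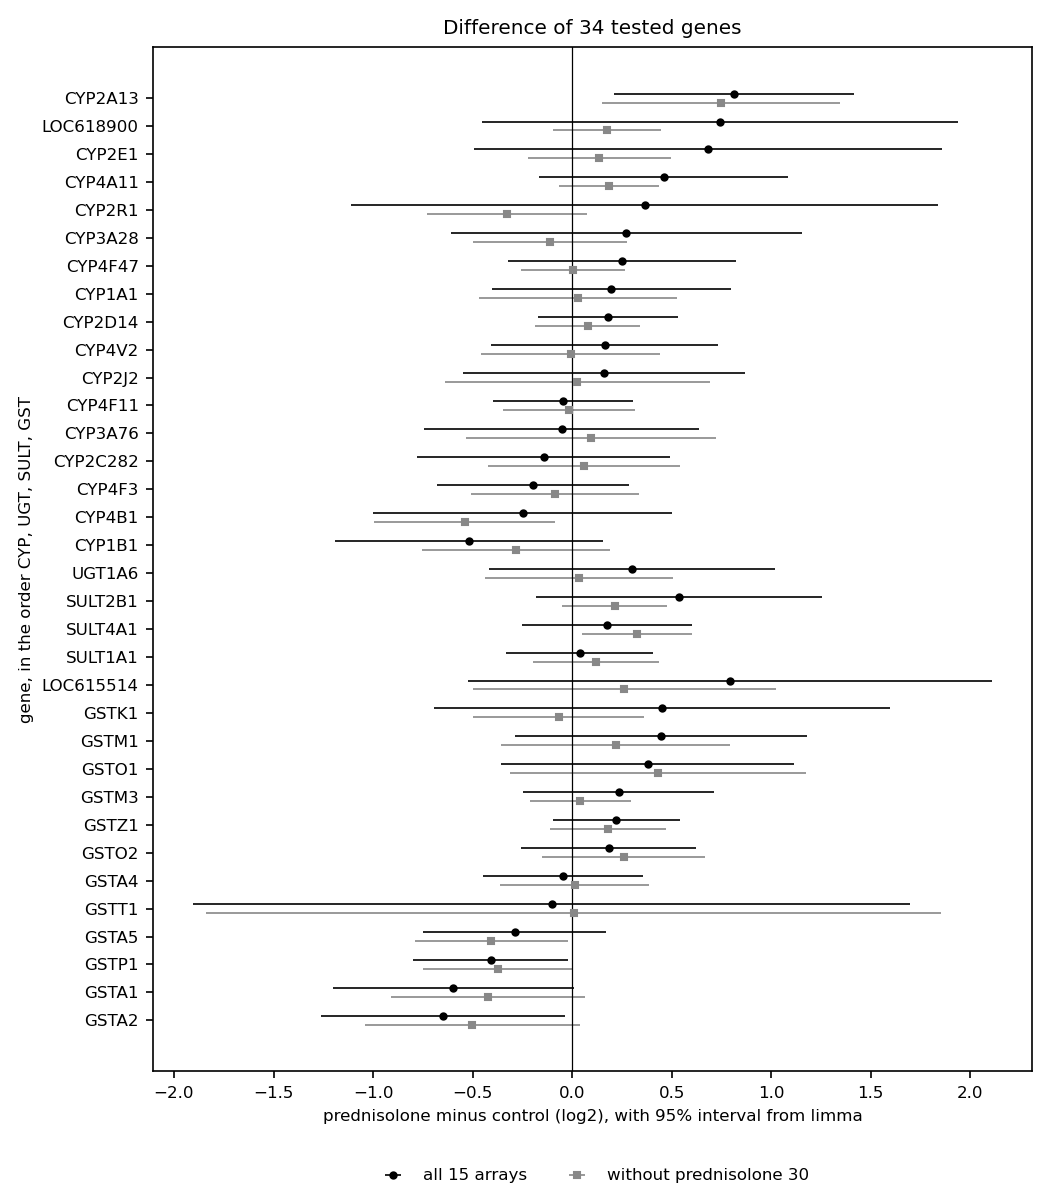
Difference of each tested gene, prednisolone minus control on the log2 scale, with its 95% interval from limma, for all 15 arrays (circles) and without prednisolone 30 (squares), sorted within each family. The intervals of CYP2A13, GSTA2 and GSTP1 exclude 0 on all arrays, before any adjustment for the 18492 probes tested, and several intervals narrow when prednisolone 30 is left out.

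Among the P450 genes, CYP2A13 had the smallest unadjusted p. In humans its product is an airway enzyme that activates tobacco nitrosamines. Its level ran from -5.12 to -3.96 (median -4.39) in prednisolone animals and from -6.39 to -3.90 (median -5.26) in control animals. All 8 prednisolone animals lay above the control mean, but control 23 was higher than every one of them. The top prednisolone value, -3.96, was that of prednisolone 30, where the probe was not above background. The other 7 prednisolone animals reached up to -3.98, and all 7 lay above the control mean. Means were -4.42 ± 0.40 (SD, n = 8) and -5.23 ± 0.73 (SD, n = 7), and the difference was 0.81 (95% interval 0.21 to 1.42, limma unadjusted p = 0.0114, adjusted p = 0.883). It was 0.75 (adjusted p = 0.98 in limma) without prednisolone 30. With the scan day as a block it was 0.44. That is the estimate within the 9 arrays of scan day 1, the only day with both groups, and not a second check. Within slide 1 (prednisolone 25 and 26 with control 17 and 18) the difference was 0.56, and within slide 2 (prednisolone 29 and 30 with control 23) it was -0.07. Quantile normalization gave 0.25.

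CYP1B1 had the most negative difference of the P450 genes on all arrays; without prednisolone 30, where its probe was not above background, CYP4B1 (-0.54) and CYP2R1 (-0.33) were more negative. Its product oxidizes polycyclic aromatic compounds and oestradiol, and it is a target of the aryl hydrocarbon receptor. Levels were -3.21 to -0.90 (median -1.38) in prednisolone and -1.76 to 0.01 (median -1.03) in control animals. The lowest value was that of prednisolone 30 and the highest that of control 17, and the other 13 animals overlapped. The difference of -0.52 (95% interval -1.19 to 0.16, limma adjusted p = 0.883) became -0.28 without prednisolone 30, -0.34 without control 17 and -0.11 without both. Control 17 also had the highest mean of the smooth muscle (1.26), endothelial (0.93), macrophage (0.83) and epididymal (1.87) markers among the 14 other arrays, and the lowest of the spermatid markers (-0.79), each relative to the mean over animals. Their part in the difference was not tested. Because whole tissue was measured, fewer cells of a type and less RNA per cell cannot be told apart.

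CYP1A1, the classic target of the same receptor, was at -4.97 to -3.31 (median -4.64) in prednisolone animals against -5.37 to -3.66 (median -4.73) in control animals. The ranges overlapped almost wholly, and the difference was 0.20 (95% interval -0.40 to 0.80), or 0.03 without prednisolone 30. The top prednisolone value, -3.31, was that of prednisolone 30, where the probe was not above background. CYP1A2 of the same subfamily was above background on no array.

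The CYP3A enzymes, which hydroxylate steroids including glucocorticoids, were represented by 3 bovine genes. CYP3A76, named CYP3A5 on the array, was at -0.94 to 1.06 (median 0.76) in prednisolone and -0.43 to 1.22 (median 0.49) in control animals. Prednisolone 27 and 30 and control 17 were the only animals below 0, and the groups overlapped. The difference was -0.05 (95% interval -0.74 to 0.64) and turned to 0.09 (-0.53 to 0.72) without prednisolone 30. For CYP3A28, which the array calls CYP3A4, levels were -6.24 to -2.95 (median -6.01) against -6.65 to -5.37 (median -5.91), the top value being prednisolone 30. Its difference of 0.27 became -0.11 (95% interval -0.50 to 0.28) without that animal. CYP3A74, also called CYP3A4 on the array, was not above background anywhere.

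Several CYP4 genes, whose products hydroxylate the end of fatty acid chains, were detected. CYP4A11 was at -1.91 to 0.63 (median -1.49) in prednisolone and -1.91 to -1.58 (median -1.79) in control animals, and the bovine locus LOC618900, which the array describes as a CYP4A11-like gene, was at -5.83 to -0.99 (median -5.49) and -6.05 to -5.50 (median -5.69). In both genes the top value was prednisolone 30, and the next highest prednisolone values were -1.30 and -5.17; 4 and 3 of the other 7 prednisolone animals lay above the control range. The differences were 0.46 and 0.74 with that animal and 0.18 and 0.18 without it. CYP4B1, a fatty acid hydroxylase that also activates some protoxins, was at -5.10 to -2.41 (median -4.65) in prednisolone and -5.07 to -3.47 (median -4.23) in control animals. Here the 7 prednisolone animals other than prednisolone 30 lay below the control mean, and on prednisolone 30 the probe was not above background, so that its place above every control animal is that of a background signal. The difference was -0.25 with it and -0.54 (95% interval -0.99 to -0.08, limma adjusted p = 0.98) without it.

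CYP2E1, which oxidizes ethanol and small solvents, was at -6.78 to -1.98 (median -6.32) in prednisolone and -7.02 to -5.99 (median -6.41) in control animals. Prednisolone 30 was again the top value, and the difference of 0.68 was 0.14 (95% interval -0.22 to 0.50) without it. CYP2R1, a vitamin D 25-hydroxylase, had 1.46 in prednisolone 30 while the other prednisolone animals were at or below -3.68, and its difference was 0.36 with that animal and -0.33 without it. CYP2J2, an arachidonic acid epoxygenase in humans, ran from -6.37 to -3.92 (median -5.19) in prednisolone animals and from -5.76 to -4.19 (median -5.42) in control animals. The 2 groups covered much the same range, with a difference of 0.16 (95% interval -0.55 to 0.87), or 0.03 without prednisolone 30.

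The other tested P450 genes showed overlapping groups as well. CYP2C282 was at -1.43 to 0.73 (median 0.12) in prednisolone and -0.76 to 0.66 (median 0.22) in control animals, with a difference of -0.14, or 0.06 without prednisolone 30. CYP2D14 was at 0.12 to 1.23 (median 0.49) and 0.05 to 0.53 (median 0.38), with 0.18, or 0.08 without that animal. Each of these had prednisolone 30 at one end. Among CYP4 genes, CYP4F3 differed by -0.20, CYP4F47 by 0.25 and CYP4V2 by 0.16, or by -0.09, 0.0042 and -0.0067 without prednisolone 30.

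The CYP4F11 gene had 2 probes, and they disagreed. The brighter probe, which stood for the gene, had a difference of -0.04 and the other 0.63, or -0.02 and 0.71 without prednisolone 30, and across the 14 arrays other than prednisolone 30 their levels had a Pearson correlation of -0.23. Which of the 2 probes follows the transcript was not tested.

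The single UGT gene that was tested was UGT1A6, named UGT1A4 on the array, whose product glucuronidates small phenols. It was at -3.82 to -1.07 (median -3.01) in prednisolone and -3.69 to -2.41 (median -3.38) in control animals. Prednisolone 30 alone lay above the control range, and the difference was 0.30 with it and 0.04 (95% interval -0.44 to 0.51) without it.

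SULT1A1, the main sulfotransferase of phenols, was at 2.87 to 3.82 (median 3.53) in prednisolone and 3.05 to 3.63 (median 3.47) in control animals, a difference of 0.04 (95% interval -0.33 to 0.41), or 0.12 without prednisolone 30. SULT2B1, which sulfonates cholesterol and related sterols, was at -1.36 to 1.44 (median -1.16) in prednisolone and -1.67 to -1.13 (median -1.36) in control animals. The value of prednisolone 30 lay far above the rest, and the difference was 0.54 with it and 0.21 (95% interval -0.05 to 0.48) without it. SULT4A1, a brain-rich member with no well defined substrate, was at -1.53 to 0.03 (median -0.39) against -1.14 to -0.45 (median -0.59). The low ends were prednisolone 30 and control 17, and the difference was 0.17, or 0.33 (95% interval 0.05 to 0.60, limma unadjusted p = 0.024, adjusted p = 0.98) without prednisolone 30.

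The GST genes held 2 of the 3 members with an unadjusted p under 0.05, GSTA2 and GSTP1, both lower in prednisolone animals. Without prednisolone 30 neither was under 0.05 (limma unadjusted p = 0.0662 and 0.0504), and the GST genes held 1 of 4, GSTA5. Alpha class GSTs conjugate electrophiles and reduce lipid hydroperoxides, and some also isomerize steroid intermediates. GSTA2 was at -2.80 to -0.47 (median -1.82) in prednisolone and -1.69 to -0.52 (median -1.26) in control animals. Prednisolone 25, 30, 31 and 32 lay below every control animal, while prednisolone 27 was above them all; on prednisolone 30 the probe was not above background. Means were -1.77 ± 0.68 (SD, n = 8) and -1.12 ± 0.45 (SD, n = 7), with a difference of -0.65 (95% interval -1.26 to -0.03, limma unadjusted p = 0.0397, adjusted p = 0.883). It was -0.50 without prednisolone 30 and -0.86 within the scan day that held 9 arrays, -0.93 within slide 1 and -0.43 within slide 2. That scan day and slide 2 both included prednisolone 30. On slide 2 prednisolone 29 was at -1.45, above control 23 at -1.69, and only prednisolone 30 was lower, at -2.80.

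GSTA1, a neighbour of GSTA2 in the RefSeq gene order, was at 2.56 to 4.56 (median 3.95) in prednisolone and 3.83 to 4.70 (median 4.40) in control animals. Prednisolone 25, 26, 30 and 32 lay below the control range and the other 4 within it. The difference was -0.60 (95% interval -1.20 to 0.01, limma unadjusted p = 0.0529), -0.42 without prednisolone 30, -0.47 without prednisolone 32, -0.62 within the scan day, -0.34 within slide 1 and -1.01 within slide 2. On slide 2 prednisolone 29 was at 4.21, near control 23 at 4.39, and prednisolone 30 was at 2.56. Prednisolone 32 also had the lowest mean of the 8 Leydig cell markers, at -0.94 relative to the mean over animals, against -0.21 to 0.34 in control animals. The correlation of GSTA1 with that mean was 0.73 over 14 animals (permutation p = 0.00698, 0.108 after Benjamini-Hochberg adjustment over 170 pairs), Spearman's rho was 0.49 (permutation p = 0.0752, adjusted p = 0.387), and r was 0.32 without prednisolone 32 and 27. Those 2 animals lie farthest from the median of the marker mean, so leaving them out also narrows its range. Within the 8 animals of scan day 1, with prednisolone 32 but not prednisolone 27 among them, r was 0.77. A second, dimmer GSTA1 probe had a difference of 0.26, or 0.03 without prednisolone 30, and a correlation of -0.18 with the first.

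GSTA5 and, 1 gene further on, GSTA4 lie next in the same order. GSTA5 was at -2.56 to -1.05 (median -1.86) in prednisolone and -2.07 to -1.09 (median -1.51) in control animals, and GSTA4, which detoxifies hydroxynonenal, at 0.31 to 1.33 (median 0.69) and 0.13 to 1.21 (median 0.91). Both pairs of groups overlapped. The top GSTA5 value was that of prednisolone 30, where the probe was not above background, and the next highest prednisolone value was -1.53. The difference of GSTA5 was -0.29, and -0.41 (95% interval -0.79 to -0.02, limma unadjusted p = 0.04, adjusted p = 0.98) without prednisolone 30. Within the scan day of 9 arrays, which included prednisolone 30, it was -0.01. That of GSTA4 was -0.05 (95% interval -0.45 to 0.36), or 0.01 without prednisolone 30. Across the 14 animals the correlation of GSTA2 with GSTA1 was 0.58 (Spearman's rho 0.65, permutation p = 0.0265 and 0.0134, adjusted p = 0.185 and 0.175 over 14 pairs of neighbouring members), and 0.50 without the 2 animals farthest from the median. No pair among the GSTA, GSTM, GSTO, CYP3A and CYP4F neighbours passed the adjustment.

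GSTP1, the pi class enzyme found in many tissues outside the liver, was at 0.97 to 1.79 (median 1.17) in prednisolone and 1.46 to 2.46 (median 1.54) in control animals. Prednisolone 27 and 29 were at 1.79 and 1.74 and the other 6 were below every control animal, and control 17 was the highest of all. Means were 1.27 ± 0.32 (SD, n = 8) and 1.68 ± 0.35 (SD, n = 7), and the difference was -0.41 (95% interval -0.80 to -0.02, limma unadjusted p = 0.0407, adjusted p = 0.883). It was -0.37 without prednisolone 30, -0.28 without control 17, -0.24 without both, -0.61 within the scan day of 9 arrays, -0.89 within slide 1 and -0.13 within slide 2. On slide 2 prednisolone 29 was above control 23, at 1.74 against 1.51, and only prednisolone 30 was lower, at 1.02.

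**Figure D3:**
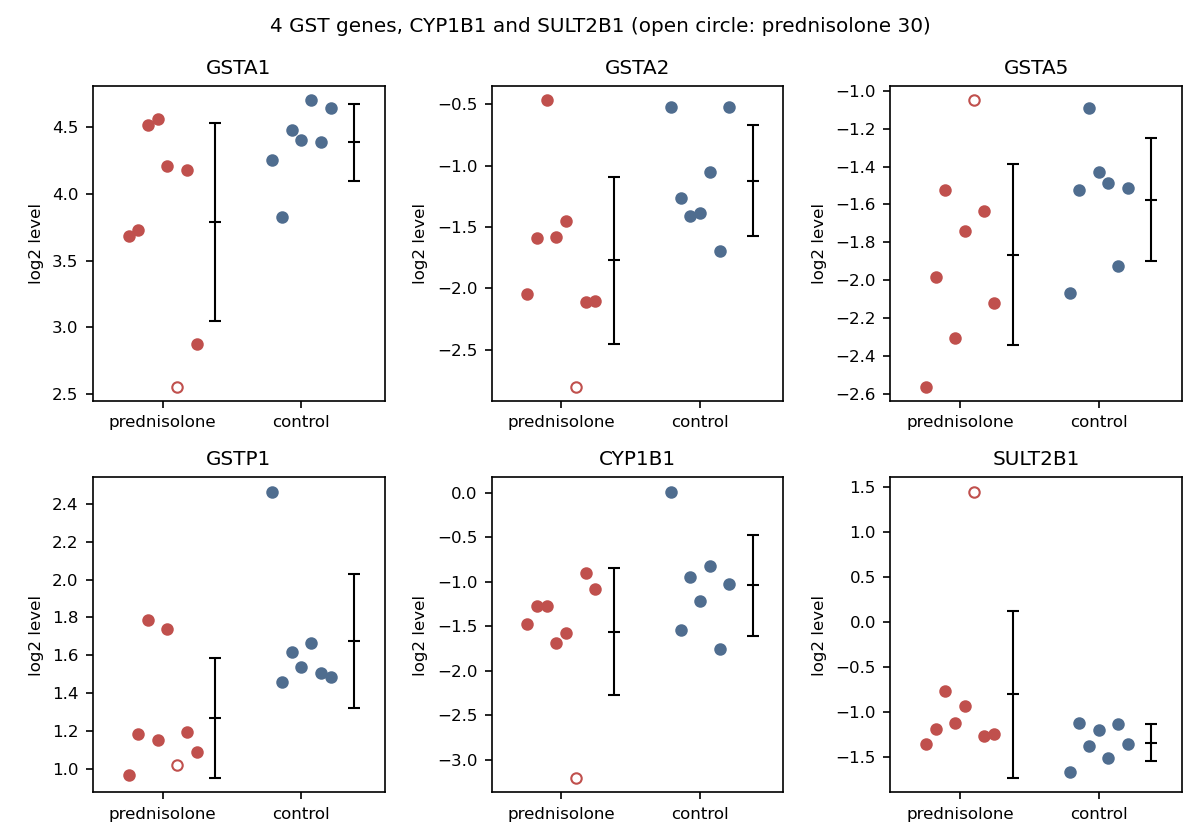
Level of GSTA1, GSTA2, GSTA5, GSTP1, CYP1B1 and SULT2B1 (log2 signal minus the 75th percentile of the array) in each prednisolone (left) and control animal (right), with the mean and SD of each group as a bar and prednisolone 30 as an open circle. The groups overlap in all 6 panels, most prednisolone points of GSTP1 sit below the control points, and prednisolone 30 is the extreme point of its group in each panel but GSTP1.

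Mu class genes showed no difference past the threshold. GSTM3, a mu class GST that is abundant in human testis and brain, varied least of all members, with an SD of 0.18 over the 14 arrays. It was at 6.74 to 8.50 (median 6.94) in prednisolone and 6.63 to 7.19 (median 6.88) in control animals, and the difference was 0.23 with prednisolone 30, the top value, and 0.04 (95% interval -0.21 to 0.29) without it. GSTM1 was at 0.41 to 2.72 (median 0.68) in prednisolone and 0.34 to 1.22 (median 0.66) in control animals. Prednisolone 27 and 30, at 2.50 and 2.72, lay more than 1 log2 unit above all others, and the difference was 0.45, or 0.22 (95% interval -0.36 to 0.79) without prednisolone 30. LOC615514, the locus between these 2 that the array calls GSTM1-1, was above background in 5 of 8 prednisolone and 2 of 7 control animals, and its difference of 0.79 became 0.26 without prednisolone 30.

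GSTT1, a theta class enzyme that conjugates small halogenated compounds, had the largest SD of all members, 1.80 over 14 arrays, above that of 99.8% of tested probes. The values were 3.11, 3.04, 2.46, 2.39, 2.13, 1.01, -2.38 and 2.57 in prednisolone 25 to 32, against 2.86, 2.28, -2.06, 2.32, 2.65, 1.77 and 3.45 in control 17, 18, 20, 21, 22, 23 and 24. One animal of each group was thus far below the rest, prednisolone 31 and control 20, and the probe was still above background in both. Between them and the lowest of the other 12 animals lay a gap of 3.83 log2 units, 14.2-fold, and the deposited table gave a gap of 3.68, 12.8-fold. The difference between the groups was -0.10 (95% interval -1.90 to 1.70), or 0.01 without prednisolone 30.

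Among the 18492 tested probes, GSTT1 was the only one on which those 2 animals were both lowest by at least 1 log2 unit in the scanner values, and none had both highest by as much. In the authors' deposited values both were lowest on 2 probes and highest on 5. The nearest genes with a tested probe in the RefSeq order, DERL3, SLC2A11, MIF, GSTT4, DDT, CABIN1, SUSD2 and GGT5, did not set the pair apart: on none of them were both animals below, or both above, all others. GSTT4, 2 genes away, is named only by a locus number on the array and so lies outside the naming rule; it was at 5.25 in prednisolone 31 and 4.98 in control 20 within a range of 4.26 to 5.55 over the other 12 animals, and DDT on the other side was at 2.03 and 2.19 within 1.98 to 2.62. The next largest gap among members was that of GSTM1, 1.27, with prednisolone 27 alone on the high side.

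GSTO1 and GSTO2, omega class enzymes that reduce dehydroascorbate, are neighbours. GSTO1 had the next largest SD after GSTT1, 0.74, at -0.15 to 1.97 (median 1.02) in prednisolone and -0.20 to 1.66 (median 0.63) in control animals. The animals were spread along the range in both groups, and the difference was 0.38 (95% interval -0.36 to 1.12), or 0.43 without prednisolone 30. GSTO2 was at 3.17 to 4.05 (median 3.81) in prednisolone and 2.73 to 4.11 (median 3.50) in control animals, with a difference of 0.18, or 0.26 without prednisolone 30. GSTK1, the mitochondrial and peroxisomal kappa class enzyme, differed by 0.45, or by -0.07 without prednisolone 30, on which its probe was not above background. GSTZ1, which isomerizes maleylacetoacetate in tyrosine breakdown, was at 2.61 to 3.10 (median 2.76) in prednisolone and 2.18 to 3.14 (median 2.65) in control animals. All 8 prednisolone animals lay above the control mean of 2.58, and the difference was 0.22 (95% interval -0.10 to 0.54), or 0.18 without prednisolone 30. Over the 34 genes the median SD on 14 arrays was 0.39, against 0.32 over all tested probes.

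**Figure D4:**
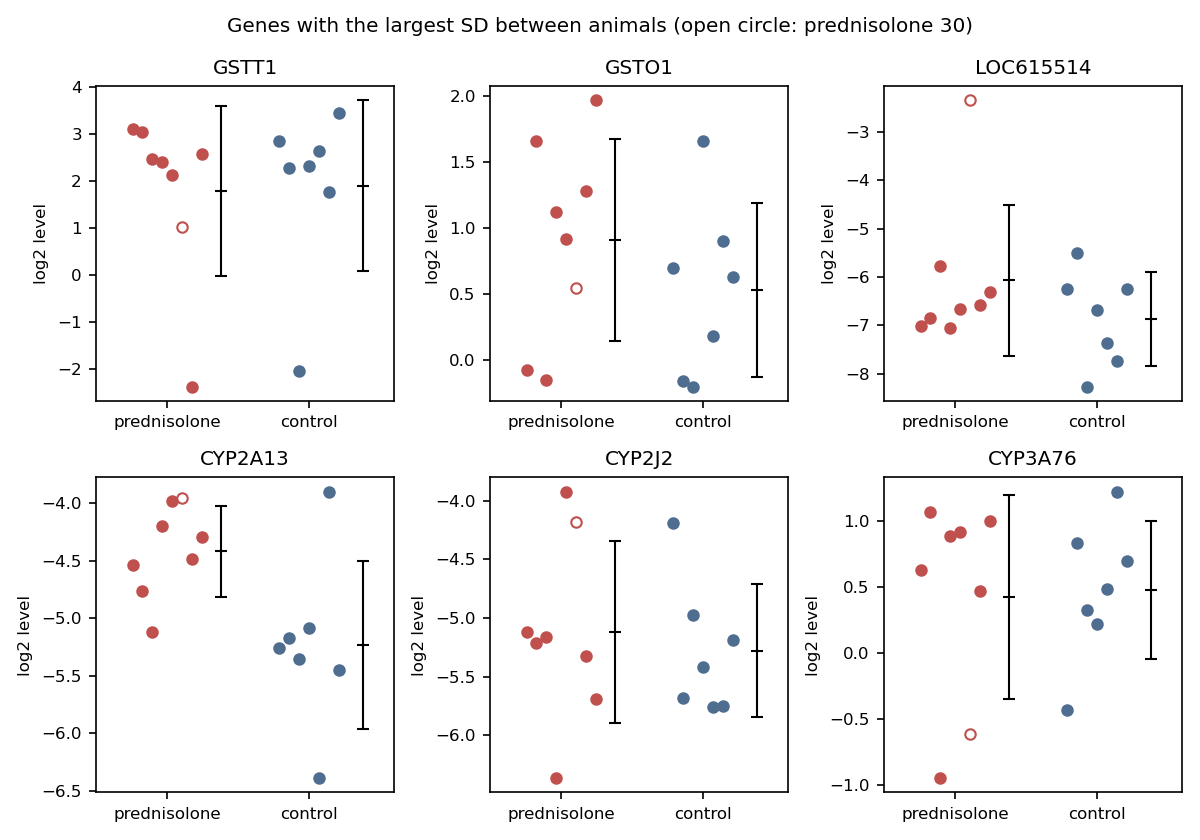
Level of the 6 tested members with the largest SD over 14 arrays, in each prednisolone (left) and control animal (right), with the mean and SD of each group as a bar and prednisolone 30 as an open circle. In the GSTT1 panel prednisolone 31 (-2.38) and control 20 (-2.06) lie apart from all other animals, while the widest gap in the other panels, leaving out prednisolone 30, is 0.94, between control 22 and the rest for CYP2A13.

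Levels were set against marker means of Leydig, Sertoli, spermatid, smooth muscle and endothelial cells over the 14 animals, 170 pairs in all. Both groups were pooled. On these animals 10 spermatid markers were higher and 0 lower in the prednisolone group, with a median difference of 0.23 and none past the threshold. How far the group difference enters the correlations was not tested. GSTO2 with the 10 spermatid markers was the only pair that passed for both coefficients, with r = 0.90 and rho = 0.85 (permutation p = 3e-05 and 0.00024, adjusted p = 0.0051 and 0.0408). Control 17, which had the lowest spermatid mean, had the lowest GSTO2 level, 2.73, and r was 0.83 without control 17 and prednisolone 28 and 0.97 within the 8 animals of the largest scan day. Passing for r alone were GSTZ1 at 0.84 (rho 0.76, adjusted p = 0.0161 and 0.0618), CYP1B1 at -0.87 (rho -0.72, adjusted p = 0.0164 and 0.0865) and CYP4V2 at -0.84 (rho -0.73, adjusted p = 0.0361 and 0.0865), each from a permutation test. Without control 17 and prednisolone 28 these were 0.73, -0.65 and -0.59, and within the scan day 0.91, -0.89 and -0.86. CYP2A13 passed for rho alone, at 0.82 (adjusted p = 0.0416 in the permutation test), with r = 0.66 (adjusted p = 0.115), 0.79 without the same 2 animals and 0.80 within the scan day. No pair with Leydig, Sertoli, smooth muscle or endothelial markers passed. These correlations were run for members only. The share of all tested probes that would pass is not known, so the relations cannot be read as particular to members.

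**Figure D5:**
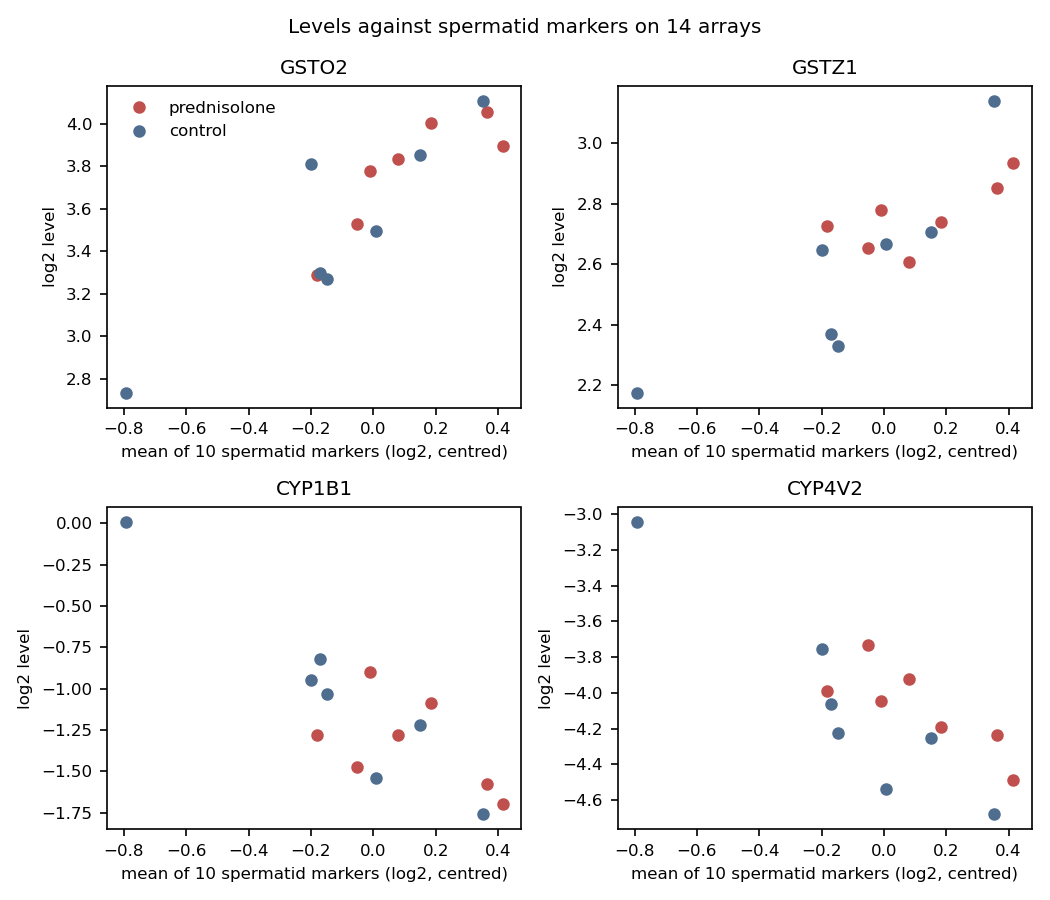
Level of GSTO2, GSTZ1, CYP1B1 and CYP4V2 (vertical axis, log2 signal minus the 75th percentile of the array) against the mean of 10 spermatid markers centred on each gene's mean (horizontal axis, log2), for 7 prednisolone and 7 control animals. GSTO2 and GSTZ1 run upward and CYP1B1 and CYP4V2 downward, and control 17 is the leftmost point of each panel, at -0.79.

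Other genes of the pathway were read from 7 lists, and none passed the threshold (limma, adjusted p = 0.883 for every gene named here, and at least 0.98 without prednisolone 30). Over all tested probes 54.8% were higher in prednisolone animals, or 52.0% without prednisolone 30. Of 12 tested receptors and regulators 5 were higher and 7 lower in prednisolone animals, or 2 and 10 without prednisolone 30. VDR, the vitamin D receptor, differed by 0.41 and PPARA, the fatty acid receptor, by 0.68, or by 0.17 and 0.24 without that animal. Of 9 electron donors and haem genes 3 were higher and 6 lower with and without it. Among them ALAS1, the first enzyme of haem synthesis, averaged 2.23 ± 0.19 (SD, n = 8) in prednisolone and 1.95 ± 0.30 (SD, n = 7) in control animals, a difference of 0.28 (95% interval -0.04 to 0.60), or 0.27 without prednisolone 30. PGRMC1, a haem-binding partner of P450s, differed by -0.49, or by -0.13 without it.

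Other oxidizing, reducing and hydrolysing enzymes were higher for 11 and lower for 18 of 29 genes, or 13 and 16 without prednisolone 30. ALDH3A1, an aldehyde dehydrogenase, differed by 0.32 and XDH, xanthine dehydrogenase, by -0.35, or by 0.28 and -0.23 without that animal. Other conjugating enzymes were higher for 4 and lower for 6 of 10, or 5 and 5 without it, with MGST1, a microsomal glutathione transferase, at 0.99, or 0.51. Cosubstrate genes were higher for 5 and lower for 13 of 18 with and without prednisolone 30. CTH, which makes cysteine for glutathione, differed by 0.38 and PAPSS2, which makes the sulfate donor, by -0.45, or by 0.26 and -0.42 without it.

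Deconjugating enzymes were higher for 2 and lower for 3 of 5, or 3 and 2 without prednisolone 30. GUSB, beta-glucuronidase, differed by 0.34, by 0.054 without that animal and by -0.065 in the deposited table, and SUMF1, the sulfatase activator, by -0.17, or -0.053 without it. Transporters were higher for 9 and lower for 8 of 17, or 7 and 10 without prednisolone 30. ABCC5, an efflux pump, differed by -0.33 and the prostaglandin carrier SLCO2A1 by 0.50, or by -0.21 and 0.32 without it.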

How the data were processed

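RNA of 15 bovine testes, 1 array each, was measured on a one-colour Agilent bovine array with 42990 spots of 21475 probes. Per the file headers the deposited intensity values are Feature Extraction 9.5.1.1 processed signals, and per the labels' design text they were background-subtracted, detrended and scanned at 2 sensitivities. The authors' deposited table holds intensities on a linear scale, and their log2 was used here. How that table was normalized is not given in the sources used. The submitters' processing notes name R 2.11.1.

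Spots called non-uniform or population outliers were left out, the 2 spots of a probe averaged, and the log2 signal reduced by the log2 75th percentile of the array. Probes well above background on at least 7 of 15 arrays were tested with limma 3.58.1 (lmFit, eBayes, R 4.3.3), with Benjamini-Hochberg adjustment over 18492 probes and a threshold of 0.05. The fit was tested on simulated data. A gene was read through its tested probe with the highest mean level. Correlations used 100000 permutations, two-sided. Gene names follow RefSeq of assembly ARS-UCD2.0 where the array's accession, gene number or symbol matched a gene named there. Elsewhere, as where RefSeq gives only a locus number or genes would share a name, the array's name was kept. Array names that are protein names, such as GSTM1-1, were replaced by the locus number. No coordinates are given because the array's build is not named.

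Members and lists were chosen with earlier results of these data known. Named genes were a panel of well-known members, the 5 tested genes lowest in unadjusted p among those higher and among those lower, the 6 with the largest SD, and up to 2 per pathway list; other members named for detection, sign changes, probe disagreement or correlation were chosen after their values were seen. Alternatives covered background correction, normalization, the filter, slide and scan day, array weights and omitted animals. Some items are not reported here; they remain in the counts.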

Additional observations from a re-analysis of the deposited data

Results flagged for a closer look

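Of 68 groups of values (34 tested genes in 2 groups), 22 held an animal whose gap to the next was too large a share of the group's range by Dixon's test, where chance flags about 1 in 20, or 3.4 groups. Prednisolone 30 was that animal in 15 of them. It was low for CYP1B1 (-3.21) and SULT4A1 (-1.53), and high for CYP2E1 (-1.98), CYP2R1 (1.46), CYP3A28 (-2.95), CYP4A11 (0.63), CYP4B1 (-2.41), CYP4F47 (0.31), CYP4V2 (-2.73), LOC618900 (-0.99), GSTK1 (-2.70), GSTM3 (8.50), LOC615514 (-2.35), SULT2B1 (1.44) and UGT1A6 (-1.07). In 7 of these 15, CYP1B1, CYP2E1, CYP3A28, CYP4B1, CYP4V2, GSTK1 and LOC615514, the probe was not above background on that array. In the deposited table, whose column for this animal correlates at 0.686 with the scanner values, prednisolone 30 lay within the range of the other 14 animals for all 15 genes. Which of the 2 sources is right for this animal was not tested. On its array only 36.4% of all probes were well above background. Such flags are not counted here over all tested probes, so they cannot be read as particular to the members.

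GSTT1 stood apart in prednisolone 31 (-2.38) and in control 20 (-2.06), both low. CYP4F11 was low in prednisolone 28 (0.36) and high in control 21 (1.55). Control 17 was high for GSTP1 (2.46) and low for SULT4A1 (-1.14), and control 22 was low for CYP4F47 (-1.97).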

How the results depend on the processing

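No member passed the threshold under any alternative, and the smallest adjusted p of a member was 0.513 with array weights. The normexp background moved the median difference of all probes to 0.11, against 0.04, and the members' median to 0.14. With it 21 of the 34 members were higher, against 69.3% of all probes. Under normexp 0 members had an unadjusted p under 0.05, against 0.454% of all probes, and with array weights 6 did, against 6.63%. Of the 24 tested genes named by the rule, the following changed sign, none of them past the threshold. Leaving out prednisolone 30 gave CYP3A28 -0.11, CYP3A76 0.095, GSTA4 0.014 and GSTT1 0.0085, control 17 GSTT1 0.058, prednisolone 32 SULT1A1 -0.0075, and both control 17 and prednisolone 30 CYP3A28 -0.23, GSTA4 0.034, GSTM3 -0.0082, GSTT1 0.17 and UGT1A6 -0.042. Array weights gave CYP3A28 -0.23, CYP3A76 0.25, GSTM1 -0.063 and GSTT1 0.16. The deposited table gave CYP1A1 -0.057, CYP3A28 -0.12, CYP3A76 0.060, GSTA4 0.060 and GSTM3 -0.0042. Median scaling gave SULT1A1 -0.017, normexp GSTM3 -0.0090, and quantile normalization CYP1A1 -0.10, CYP2J2 -0.42 and GSTM3 -0.0087. Scan day as a block and the arrays of scan day 1 alone give the same estimates, because only that day held both groups. Both gave CYP1A1 -0.077, CYP3A76 0.036, GSTA4 0.17 and SULT1A1 -0.13. Slide as a block gave CYP1A1 -0.20, GSTA4 0.26, GSTT1 0.23 and SULT1A1 -0.26. The alternatives within one slide were chosen after seeing the data. Slide 1 gave CYP1A1 -0.50, CYP2J2 -0.23, CYP3A28 -0.11, CYP3A76 0.64, GSTA4 0.37, GSTM1 -0.10, GSTT1 0.51, LOC615514 -1.05 and SULT1A1 -0.25. Slide 2, which included prednisolone 30, gave CYP2A13 -0.071, CYP4B1 0.34, GSTA4 0.091, GSTA5 0.53, GSTO1 -0.17, GSTZ1 -0.17 and SULT1A1 -0.29. Over all 34 tested members, 8 changed sign without prednisolone 30 (also CYP2R1 -0.33, CYP2C282 0.060, CYP4V2 -0.0067 and GSTK1 -0.067) and 10 in the deposited table (also CYP2R1 -0.37, CYP2C282 0.12, CYP4V2 -0.071, GSTK1 -0.057 and CYP4F47 -0.0049). The causes were not tested. Slide as a random block, added in the same way, changed the sign of 0 of 34 members, as did the absence of a filter, and a stricter filter 0 of the 31 it kept. No paired analysis was possible because the groups share no replicate numbers. Probes near background limit what can be said of the 14 untested genes.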

Other observations

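The array also carries a probe named STE, which RefSeq names SULT1E1, the oestrogen sulfotransferase; it falls outside the naming rule and was looked up after the other values were seen. It was above background in 6 of 8 prednisolone and 6 of 7 control animals. Its level was -8.23 to -3.84 (median -6.63) in prednisolone and -7.32 to -5.82 (median -6.52) in control animals, with a difference of 0.03 (95% interval -0.99 to 1.05), or -0.35 without prednisolone 30.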
